A study of Mus musculus with 8 samples.

Results

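Trem2, Tyrobp and 6 genes that act with them or beside them were measured in forebrain RNA of TgCRND8 mice and non-transgenic littermates. The 8 genes, chosen by name from the 56748 rows of the deposited count table, were the receptors Trem2 and Treml2, the adaptors Tyrobp and Hcst, the signalling proteins Syk, Plcg2 and Vav1, and the inhibitory phosphatase Inpp5d. All 8 had a row and passed the filter on low counts, Hcst only through the Tg libraries. The 4 Tg libraries came from TgCRND8 mice aged 18 months, which overexpress the amyloid precursor protein (APP), and the 4 NTg libraries from littermates of the same age without the transgene. TgCRND8 is known as a line that carries a human APP cDNA with the Swedish and Indiana mutations under the Syrian hamster prion gene promoter, which is most active in neurons. The labels name no treatment and do not state that the replicates are different mice, so the p-values rest on a spread between libraries that may be technical. The question posed by the design is how gene expression differs between the genotypes in aged forebrain.

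TREM2 is a receptor of microglia for lipids, lipoproteins and amyloid. It has almost no signalling tail of its own and sits in the membrane with TYROBP (DAP12), whose immunoreceptor tyrosine-based activation motif (ITAM) is phosphorylated by Src-family kinases and then holds the kinase SYK. SYK acts on PLCG2, which makes the second messengers that release calcium, and on VAV1, which activates small GTPases of the Rac family. HCST (DAP10) is a companion adaptor that recruits phosphoinositide 3-kinase, and INPP5D (SHIP1) removes the lipid that this kinase makes. In mouse models of amyloid deposition, microglia that lack Trem2 gather poorly around plaques, and rare human variants of TREM2 raise the risk of Alzheimer's disease.

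The libraries held 57129090 to 65242741 counts. App, the mouse gene that can take up reads from a human APP transgene, was at 2532 to 2980 CPM in Tg and at 1390 to 1623 CPM in NTg, in the order the labels give. CPM is a gene's counts as a share of its library's scaled total, so it compares libraries and not genes of different length. The 12 microglial marker genes were all detected, and their CPM summed to 401 to 607 in Tg and 295 to 388 in NTg. Tg replicate 1 had the lowest microglial sum of the Tg libraries, and its red blood cell genes summed to 3004 CPM, where the other Tg libraries had 448 to 732 CPM and the NTg libraries 1283 to 3274 CPM. NTg replicate 1 had the highest microglial sum of the NTg libraries, and its 6 B cell markers summed to 12.7 CPM, where the Tg libraries had 4.53 to 4.86 CPM and the other NTg libraries 2.62 to 4.83 CPM. B cells also use Syk, Plcg2, Vav1, Inpp5d and Treml2, and their part in the values of these genes was not tested.

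The promoters of 6 of the 8 genes were in the RefSeq table of GRCm38.p6, each as 250 bases before to 50 bases after the annotated start. Entries for Tyrobp and Treml2 were not in that table. The windows were searched on both strands for AGGAAGT, the core of sites bound by PU.1 (Spi1), a transcription factor of myeloid cells. Of the 7 windows, which include 2 for Syk, 3 held the letters, against 9.35% of all 32851 windows in the table. The windows of Hcst, Inpp5d and Vav1 are shown because they held the motif, and that of Trem2 because it had the largest genotype difference. The motif is in capitals, all else in lower case, and each is printed 5′ to 3′ along its gene.
Trem2 (chr17:48346151-48346450, plus strand): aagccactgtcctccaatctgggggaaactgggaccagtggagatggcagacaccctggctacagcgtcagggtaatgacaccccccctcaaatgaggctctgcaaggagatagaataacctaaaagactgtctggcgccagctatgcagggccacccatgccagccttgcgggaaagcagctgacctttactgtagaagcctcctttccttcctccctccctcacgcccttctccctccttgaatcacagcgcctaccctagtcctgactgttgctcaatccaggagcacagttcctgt
Hcst (chr7:30419805-30420104, minus strand): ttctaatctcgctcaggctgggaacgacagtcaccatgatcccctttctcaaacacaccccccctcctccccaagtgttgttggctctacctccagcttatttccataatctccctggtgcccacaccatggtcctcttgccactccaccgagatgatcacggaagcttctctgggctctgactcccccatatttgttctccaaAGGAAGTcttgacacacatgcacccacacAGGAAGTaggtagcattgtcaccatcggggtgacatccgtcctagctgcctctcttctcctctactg
Inpp5d (chr1:87620062-87620361, plus strand): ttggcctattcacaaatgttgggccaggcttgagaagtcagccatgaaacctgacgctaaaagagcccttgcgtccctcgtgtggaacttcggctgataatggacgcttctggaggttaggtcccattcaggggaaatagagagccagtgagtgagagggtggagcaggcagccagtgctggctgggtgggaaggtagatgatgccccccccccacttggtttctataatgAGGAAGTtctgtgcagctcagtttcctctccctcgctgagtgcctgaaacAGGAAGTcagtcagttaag
Vav1 (chr17:57278850-57279149, plus strand): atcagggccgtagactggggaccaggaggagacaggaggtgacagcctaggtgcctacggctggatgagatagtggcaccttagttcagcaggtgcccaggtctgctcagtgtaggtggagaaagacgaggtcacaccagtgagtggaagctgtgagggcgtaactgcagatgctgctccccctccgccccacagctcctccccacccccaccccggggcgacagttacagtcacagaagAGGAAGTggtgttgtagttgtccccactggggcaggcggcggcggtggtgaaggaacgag
In Hcst the motif started 46 and 17 bases before the first transcribed base (positions -46 and -17). In Inpp5d it started at -19 and, within the transcribed part, at base 32. In Vav1 it started at -10, and all 5 copies ran in the direction of the gene. The windows of Trem2, Plcg2 and Syk did not hold these letters. A match describes the sequence and does not show binding, and GRCm38.p6 is an older build than that of the counts (GRCm39).

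Trem2 (ENSMUSG00000023992) stood at 32.0, 62.0, 53.3 and 61.7 CPM in Tg replicates 1 to 4, against 21.8, 15.9, 17.8 and 15.6 CPM in NTg replicates 1 to 4. All Tg libraries lay above all NTg libraries, and Tg replicate 1 lay between the other Tg libraries and the NTg libraries. The log2 fold change was 1.56 (SE 0.20), a 2.94-fold difference, with an adjusted p of 0.0723 by edgeR's quasi-likelihood test over 21588 genes, where Trem2 ranked 5 by p. DESeq2 gave an adjusted p of 1.76e-12. Without Tg replicate 1 the log2 fold change was 1.73 and edgeR's adjusted p 0.000356. With another library left out, edgeR's adjusted p was 0.0428 to 0.337. In whole tissue, more cells of a type and more RNA per cell cannot be told apart.

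Treml2 (ENSMUSG00000071068), a related receptor from the same gene cluster on myeloid and lymphoid cells, was low throughout, at 22 to 82 counts a library. It stood at 1.24, 1.22, 1.10 and 0.909 CPM in Tg, against 1.25, 0.524, 0.391 and 0.759 CPM in NTg. NTg replicate 1 was the highest of all 8, so the genotypes overlapped. That library had both the most B cell marker RNA and the highest microglial sum of the NTg libraries, and the part of either was not tested. The log2 fold change was 0.61 (SE 0.32, edgeR adjusted p = 0.752), and 1.00 without NTg replicate 1 (edgeR adjusted p = 0.215). Other members of the family were lower still. Treml4 was tested, at 0.136 ± 0.166 CPM in Tg and 0.196 ± 0.0967 CPM in NTg (SD, n = 4). Trem1, Trem3 and Treml1 had 13, 27 and 33 counts over all 8 libraries and were not tested.

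Tyrobp (ENSMUSG00000030579) stood at 30.0, 59.3, 54.3 and 67.4 CPM in Tg, against 23.9, 21.3, 18.4 and 19.5 CPM in NTg. The genotypes did not overlap, and Tg replicate 1 was again the lowest Tg library. Its log2 fold change was 1.34 (SE 0.21), with an adjusted p of 0.107 by edgeR and 4.98e-08 by DESeq2. Without Tg replicate 1 it was 1.54, with an edgeR adjusted p of 0.000356, and with another library left out that p was 0.108 to 0.351.

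Hcst (ENSMUSG00000064109) lies next to Tyrobp on chromosome 7 and rested on 9 to 27 counts a library. It stood at 0.272, 0.444, 0.275 and 0.291 CPM in Tg, against 0.165, 0.159, 0.160 and 0.212 CPM in NTg. All Tg libraries lay above all NTg libraries, with a log2 fold change of 0.88 (SE 0.26, edgeR adjusted p = 0.331). DESeq2 gave no adjusted p for it, by its own filter on low mean counts. Hcst passed edgeR's filter only through Tg, where 4 of 4 libraries reached its minimum of 0.168 CPM, against 1 of 4 in NTg, so it is left out of the counts over the genes. The libraries do not mark strand. No annotated exon of Hcst, Tyrobp or the other 6 genes overlapped another gene in GENCODE M21, and whether reads past an annotated end of Tyrobp enter the Hcst count was not tested.

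**Figure D1:**
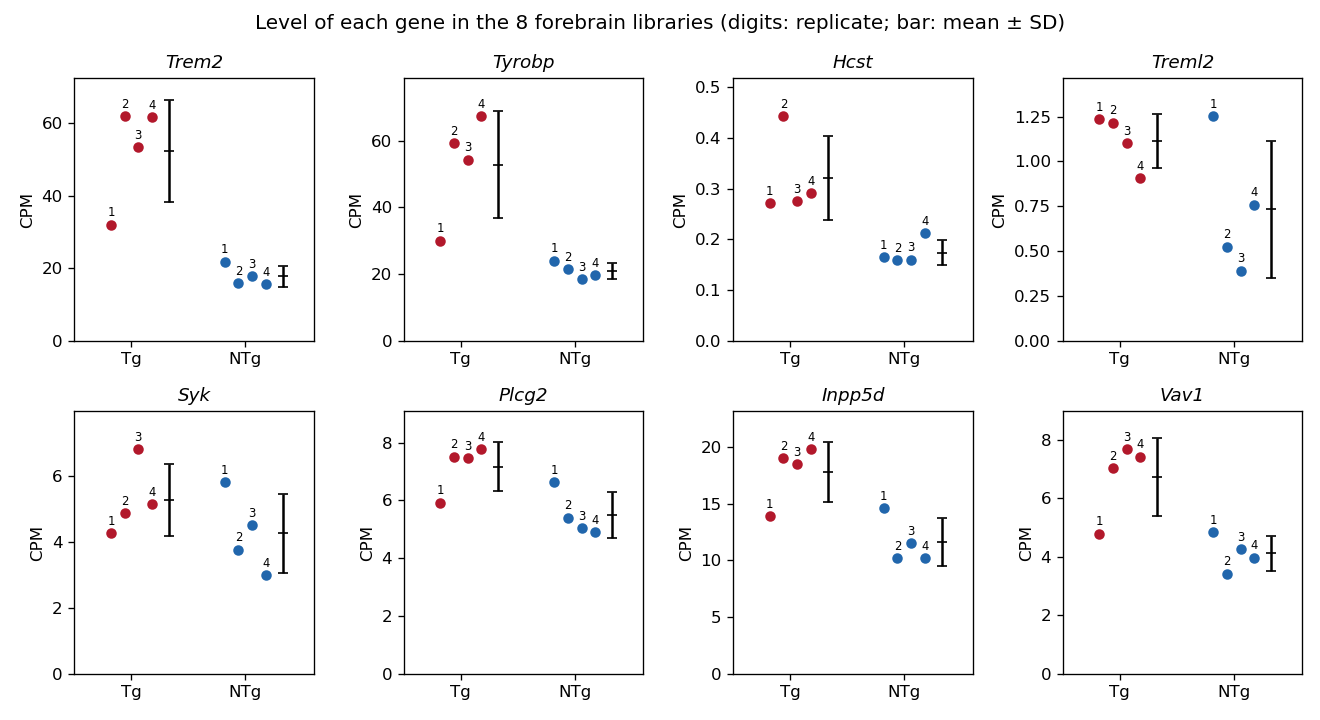
CPM (vertical axes, from 0, a scale per gene) of the 8 genes in the 4 Tg libraries (red, left) and the 4 NTg libraries (blue, right). Points are libraries with their replicate number, and bars are mean ± SD. The genotypes are apart in Trem2, Tyrobp and Hcst and overlap in the other 5 genes, and Tg replicate 1 is the lowest Tg library in 7 of the 8.

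Syk (ENSMUSG00000021457), the kinase that docks on the phosphorylated ITAM, differed least of the 8. It stood at 4.27, 4.88, 6.83 and 5.14 CPM in Tg, against 5.81, 3.77, 4.51 and 2.98 CPM in NTg. NTg replicate 1 lay above all Tg libraries but replicate 3. Tg and NTg differed by 0.31 (log2 fold change, SE 0.21, edgeR adjusted p = 0.858), and by 0.49 without NTg replicate 1 (edgeR adjusted p = 0.600).

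Plcg2 (ENSMUSG00000034330), the phospholipase below Syk, stood at 5.92, 7.51, 7.45 and 7.78 CPM in Tg, against 6.64, 5.40, 5.05 and 4.89 CPM in NTg. Tg replicates 2 to 4 lay above all NTg libraries, and Tg replicate 1 lay below NTg replicate 1. Its log2 fold change was 0.38 (SE 0.13), with an adjusted p of 0.427 by edgeR and 0.191 by DESeq2. Without Tg replicate 1 it was 0.46, with an adjusted p of 0.147 by edgeR and 0.0229 by DESeq2. Leaving out another library gave an edgeR adjusted p of 0.217 to 0.803.

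Vav1 (ENSMUSG00000034116), the Rac activator of blood and myeloid cells, stood at 4.78, 7.02, 7.69 and 7.42 CPM in Tg, against 4.84, 3.42, 4.25 and 3.97 CPM in NTg. Tg replicates 2 to 4 lay above every NTg library, and Tg replicate 1 lay inside the NTg range. The log2 fold change was 0.71 (SE 0.17), with an adjusted p of 0.177 by edgeR and 0.00626 by DESeq2. Without Tg replicate 1 it was 0.84 (edgeR adjusted p = 0.0139, but 0.168 to 0.464 with another library left out).

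Inpp5d (ENSMUSG00000026288), which limits the signal by removing the phosphoinositide that recruits Plcg2 and Vav1 to the membrane, stood at 13.9, 19.1, 18.5 and 19.9 CPM in Tg, against 14.6, 10.2, 11.5 and 10.2 CPM in NTg. Tg replicate 1 lay below NTg replicate 1, and the other Tg libraries lay above every NTg library. The log2 fold change was 0.62 (SE 0.14), with an adjusted p of 0.173 by edgeR and 0.00495 by DESeq2. Without Tg replicate 1 it was 0.72 (edgeR adjusted p = 0.0260, but 0.108 to 0.464 with another library left out). The fold change of this inhibitory gene thus lay within 1 SE of that of Vav1.

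Counted without Hcst, edgeR called 0 of 7 genes, where it called 0.00926% of all genes tested as higher in Tg. At an unadjusted p under 0.05 in edgeR, 5 of 7 were higher, against 4.68% of all genes. DESeq2 called 4 of 7, Trem2, Tyrobp, Inpp5d and Vav1, against 1.47% of the genes it tested. Without Tg replicate 1, edgeR called the same 4 genes, against 1.26% of genes, and DESeq2 also called Plcg2, against 2.32%. All 7 had a fold change above 0, as 49.2% of all genes did, and in 2 of 7 the genotypes did not overlap with Tg higher, as in 2.62% of all genes. The median log2 fold change of the 7 was 0.62, and -0.0024 over all genes tested. With the red blood cell level as a covariate the fold change was 1.15 for Trem2 (edgeR adjusted p = 0.106) and 0.87 for Tyrobp (edgeR adjusted p = 0.214), and all 7 stayed above 0. With the microglia level as a covariate it was 0.67 for Trem2 (SE 0.20, edgeR adjusted p = 0.454) and 0.45 for Tyrobp (SE 0.26, edgeR adjusted p = 0.770). For Inpp5d it was 0.04 (SE 0.15) and for Vav1 0.10 (SE 0.22). The low-count genes Hcst, at 0.89 (SE 0.51), and Treml2, at 0.53 (SE 0.56), lay above Tyrobp with wider SEs. EdgeR called 0 of the genes in this fit. NTg replicate 1 had the most B cell marker RNA and the highest microglial sum of the NTg libraries. Without it the fold change was 0.49 for Plcg2, 0.75 for Inpp5d and 0.79 for Vav1 (edgeR adjusted p = 0.217, 0.108 and 0.168).

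**Figure D2:**
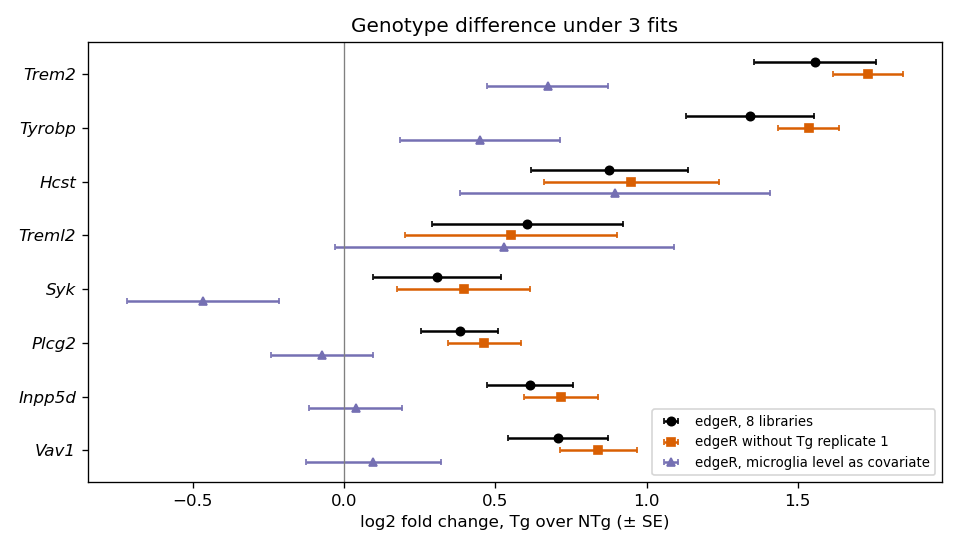
Log2 fold change, Tg over NTg, with its SE (horizontal axis) for each of the 8 genes (rows) under 3 edgeR fits, drawn as circles for all 8 libraries, squares without Tg replicate 1 and triangles with the microglia level as a covariate. Trem2 and Tyrobp lie farthest to the right in the fit of all 8 libraries, at 1.56 and 1.34, and with the covariate Syk and Plcg2 lie below 0, at -0.47 and -0.07.

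The library profile of each gene was its log2 CPM minus its NTg mean, and 2 profiles were compared by the root mean square difference over the 8 libraries. The closest pair was Inpp5d and Vav1, at 0.11, followed by Plcg2 and Inpp5d at 0.18 and by Trem2 and Tyrobp at 0.21. Trem2 and Syk were farthest apart, at 0.89. Tg replicate 1 was the lowest Tg library in 7 of the 8 genes, and NTg replicate 1 the highest NTg library in 7 of the 8. Treml2 ran otherwise in Tg, where replicate 1 was the highest library, and Hcst in NTg, where replicate 4 was.

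Per kilobase of the principal coding transcript, the adaptor was the most abundant of the 8. Tyrobp stood at 93.6 ± 28.6 CPM per kb in Tg and 36.9 ± 4.27 CPM per kb in NTg (SD, n = 4), and Trem2 at 48.0 ± 12.96 CPM per kb in Tg and 16.3 ± 2.64 CPM per kb in NTg. Inpp5d followed at 3.62 ± 0.541 CPM per kb in Tg and 2.36 ± 0.425 in NTg. Below it came Vav1, Plcg2, Syk, Hcst and Treml2, with Treml2 at 0.533 ± 0.0720 CPM per kb in Tg and 0.350 ± 0.182 in NTg. Neighbours in this order whose libraries overlapped were Tyrobp and Trem2 in Tg, Vav1 and Plcg2 in both genotypes, Syk and Hcst in Tg, and Hcst and Treml2 in NTg. With the union of all annotated exons as the length, an alternative added after seeing the data, Trem2 was at 10.6 CPM per kb in Tg and 3.59 CPM per kb in NTg, and the order of the 8 genes differed only in NTg, where Plcg2 and Vav1 swapped places.

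Trem2 and Tyrobp were higher in Tg relative to the mean of 12 microglial markers of the same libraries, and the other 6 genes did not pass this test. The edgeR log2 fold changes of the markers themselves ran from 0.36 to 1.59. The largest, that of Fcrls (SE 0.41), lay above those of Trem2 and Tyrobp. The microglia level was the mean log2 CPM of 12 marker genes, such as Cx3cr1 and P2ry12, and it was itself higher, at 0.68 ± 0.28 in Tg with the NTg mean set to 0 and an NTg SD of 0.22 (n = 4 libraries of each genotype, exact two-sided permutation p = 0.0286). Relative to it and in log2 units, Trem2 stood at 0.59, 1.06, 0.73 and 0.98 in Tg, against 0.09, -0.16, -0.06 and 0.13 in NTg. The difference was 0.84, with an SD of 0.22 in Tg and 0.13 in NTg (exact two-sided permutation p = 0.0286, higher in 4 of 4 Tg libraries). Tyrobp stood at 0.26, 0.76, 0.52 and 0.87 in Tg, against -0.01, 0.03, -0.24 and 0.22 in NTg, a difference of 0.60 with an SD of 0.27 in Tg and 0.19 in NTg (exact p = 0.0286). The smallest p that 4 against 4 libraries can give is 0.0286, and these p-values are unadjusted over the 15 within-library differences computed. With each library left out in turn, the difference was 0.77 to 0.92 for Trem2, always with an exact p of 0.0286. For Tyrobp it was 0.51 to 0.72, and the exact p rose to 0.0571 in 5 of the runs. These were the runs without Tg replicate 4 and without each NTg library. A p of 0.0571 is a single step from the smallest that these numbers of libraries allow.

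Inpp5d and Vav1 lay close to the microglia level, with differences of -0.07 (exact two-sided permutation p = 0.571) and 0.0087 (exact p = 0.914). Vav1 was close to it in every Tg library, between -0.05 and 0.04, and spread from -0.27 to 0.26 in NTg. Syk and Plcg2 did not pass the test. Syk averaged -0.36 in Tg (SD 0.19) with the NTg mean at 0 (SD 0.20), an exact permutation p of 0.0571. Plcg2 averaged -0.30 in Tg (SD 0.11) with the NTg mean at 0 (SD 0.14), also with an exact p of 0.0571, each with 3 of 4 Tg libraries below all NTg libraries. With a level made from 5 of the markers the differences were -0.26 for Syk (exact p = 0.200) and -0.20 for Plcg2 (exact p = 0.0857). Hcst and Treml2, at differences of 0.07 and 0.02 (exact p = 0.971 for both), rested on few counts. Trem2 against Tyrobp was 0.24 higher in Tg (exact p = 0.0571), and Hcst against Tyrobp 0.53 lower (exact p = 0.114), or 0.72 lower without Tg replicate 1.

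**Figure D3:**
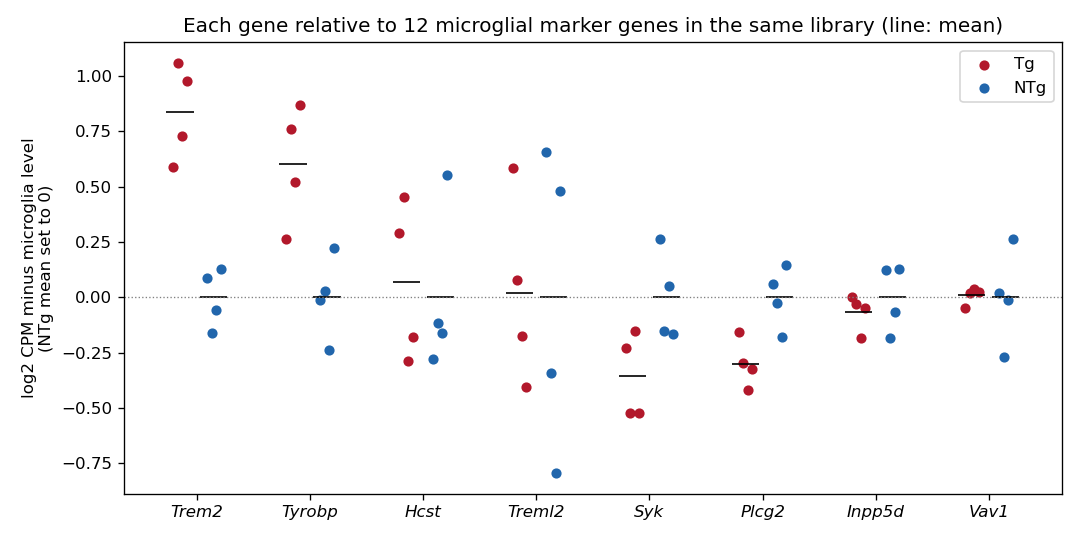
Log2 CPM of each gene minus the mean log2 CPM of 12 microglial marker genes in the same library, with the NTg mean set to 0 (vertical axis). Red points are the 4 Tg libraries, blue points the 4 NTg libraries to their right, and lines the means. All Tg libraries lie above all NTg libraries for Trem2 and Tyrobp, Vav1 and Inpp5d lie near 0, and 3 of 4 Tg libraries lie below the NTg libraries for Syk and for Plcg2.

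Paralogues of the signalling genes that many cell types express were set beside them, a comparison chosen after the values were seen. Plcg1 stood at 71.2 ± 3.94 CPM in Tg and 70.7 ± 4.30 CPM in NTg (SD, n = 4, log2 fold change 0.01). Inppl1, the SHIP2 phosphatase, was at 30.8 ± 3.39 CPM in Tg and 28.7 ± 2.56 CPM in NTg, Vav2 at 17.9 ± 1.05 CPM in Tg and 16.9 ± 1.39 CPM in NTg, and Vav3 at 17.4 ± 3.17 CPM in Tg and 19.6 ± 1.16 CPM in NTg. Within a library and in log2 units, Inpp5d was 0.51 higher against Inppl1 in Tg, and this held in 4 of 4 Tg libraries (exact two-sided permutation p = 0.0286). Vav1 was 0.87 higher against Vav3 (exact p = 0.0286). With each library left out in turn it was 0.69 to 1.05 higher, with an exact p of 0.0286 or 0.0571. Vav1 against Vav2, at 0.60, and Plcg2 against Plcg1, at 0.37, each had an exact p of 0.0571. Syk against Zap70, its relative of T cells, differed by 0.63 (exact p = 0.0857).

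Around the 8 genes, 10 lists of pathway genes held 130 further genes, of which 111 were tested, Cd300ld and Cd79a only through Tg. Of these edgeR called 0 and DESeq2 35, against the 1.47% of all genes that DESeq2 called as higher. At an unadjusted p under 0.05 in edgeR 47 were higher, against 4.68% of all genes, and 1 was lower. The 12 microglial markers gave 12 higher, 12 at an unadjusted p under 0.05 and 6 called by DESeq2, with a median log2 fold change of 0.61, and the share of all genes above 0 was 49.2%. Among 18 other receptors listed as paired with Tyrobp or Hcst, 8 were tested, Cd300ld only through Tg. Of the other 7 all were higher (median log2 fold change 0.62, the value of Csf1r) and DESeq2 called 6. Csf1r and Siglech are also among the 12 microglial markers, so this median and theirs of 0.61 share genes and cannot be compared as separate values. Cd200r4, a receptor that pairs with Tyrobp, differed most, at 1.24 ± 0.354 CPM in Tg and 0.329 ± 0.101 CPM in NTg (SD, n = 4, log2 fold change 1.90, edgeR adjusted p = 0.0972). Itgam, the CR3 integrin chain that is also CD11b, stood at 8.62 ± 1.28 CPM in Tg and 5.24 ± 0.902 CPM in NTg and Csf1r, the receptor of colony-stimulating factor 1 and also one of the 12 microglial markers, at 111 ± 18.7 CPM in Tg and 72.4 ± 11.1 CPM in NTg. Klrk1, the NKG2D receptor that signals through Hcst, had 64 counts over all libraries and was not tested.

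Of the other ITAM adaptors, Fcer1g, the common chain of Fc receptors, was at 17.5 ± 4.40 CPM in Tg and 9.28 ± 0.967 CPM in NTg (log2 fold change 0.92, adjusted p = 0.121 by edgeR and 0.000144 by DESeq2). Adaptors of lymphocytes were far lower, with Cd3e at 0.301 ± 0.109 CPM in Tg and 0.184 ± 0.113 CPM in NTg and Cd79a at 0.394 ± 0.111 CPM in Tg and 0.697 ± 0.758 CPM in NTg, none called. Cd79a passed the filter on low counts only through Tg. Among 10 kinases of the Src and Tec families DESeq2 called 2 as higher, Lyn and Btk, against 1.47% of all genes. Lyn stood at 18.8 ± 1.66 CPM in Tg and 12.6 ± 0.603 CPM in NTg (log2 fold change 0.57, edgeR adjusted p = 0.0723). Fyn, the highest by CPM, was at 104 ± 6.33 CPM in Tg and 102 ± 5.08 CPM in NTg.

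Of 27 further relay genes, 16 were higher and 11 lower (median 0.08), near the 49.2% of all genes that were higher. DESeq2 called 2 as higher, against 1.47% of all genes. They were Lcp2, the SLP-76 scaffold, at 4.53 ± 0.559 CPM in Tg and 2.74 ± 0.144 CPM in NTg (edgeR adjusted p = 0.107), and Pik3cg, a phosphoinositide 3-kinase of leukocytes, at 6.05 ± 1.21 CPM in Tg and 3.68 ± 0.548 CPM in NTg (edgeR adjusted p = 0.169). Lat2, a membrane scaffold, stood at 1.97 ± 0.102 CPM in Tg and 1.31 ± 0.216 CPM in NTg, and Prkcb, the highest by CPM, at 319 ± 29.9 CPM in Tg and 327 ± 15.7 CPM in NTg. Of 16 inhibitors DESeq2 called 5 as higher, against 1.47% of all genes, and the median over the list was 0.11. Lair1 was at 14.4 ± 1.67 CPM in Tg and 9.91 ± 0.759 CPM in NTg, Lilrb4a at 4.89 ± 2.22 CPM in Tg and 1.49 ± 0.289 CPM in NTg, and Ptpn6, the SHP-1 phosphatase, at 8.49 ± 1.31 CPM in Tg and 5.20 ± 1.22 CPM in NTg. The broadly expressed Sirpa was at 347 ± 26.9 CPM in Tg and 322 ± 13.7 CPM in NTg.

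Among 16 tested genes of Trem2 ligands and shedding the median was 0.04, and DESeq2 called 3 as higher, against 1.47% of all genes. C1qa stood at 127 ± 35.5 CPM in Tg and 59.8 ± 8.83 CPM in NTg, Lgals3 at 6.73 ± 1.24 CPM in Tg and 3.72 ± 0.812 CPM in NTg, and the apolipoprotein Clu at 839 ± 117 CPM in Tg and 622 ± 31.0 CPM in NTg. Apoe, a lipoprotein ligand and the highest of the list by CPM, was at 1661 ± 231 CPM in Tg and 1410 ± 69.7 CPM in NTg (edgeR adjusted p = 0.595). Adam10 and Adam17, proteases that shed the receptor and that were named after their values were seen, stood at 96.4 ± 5.85 CPM in Tg and 96.4 ± 6.31 CPM in NTg and at 25.9 ± 2.11 CPM in Tg and 22.9 ± 1.36 CPM in NTg.

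Genes that plaque microglia need Trem2 to raise in mouse models were higher in Tg in 12 of 12 cases (median 0.74), with 0 called by edgeR, 10 higher at an unadjusted p under 0.05 (4.68% of all genes) and 9 called by DESeq2 (1.47% of all genes). The microglial markers were likewise higher in 12 of 12 cases. Cst7 stood at 23.8 ± 9.48 CPM in Tg and 2.83 ± 1.32 CPM in NTg, Clec7a at 14.7 ± 4.75 CPM in Tg and 5.86 ± 0.945 CPM in NTg, and Ctsl at 126 ± 11.8 CPM in Tg and 97.0 ± 2.86 CPM in NTg. Of 8 plaque microglia genes that depend less on Trem2, 7 were higher (median 0.40) and DESeq2 called 3, Ctsd, Lyz2 and Ctsb. The difference between these lists was not tested. Of 9 tested regulators of microglial transcription all 9 were higher (median 0.49) and DESeq2 called 5, among them Runx1, at 2.58 ± 0.814 CPM in Tg and 1.16 ± 0.209 CPM in NTg, Irf8, at 10.6 ± 2.16 CPM in Tg and 6.27 ± 0.965 CPM in NTg, and Spi1, which encodes PU.1, at 5.66 ± 1.08 CPM in Tg and 3.61 ± 0.187 CPM in NTg. Mef2c, which neurons also express, was at 315 ± 78.5 CPM in Tg and 281 ± 18.5 CPM in NTg.

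**Figure D4:**
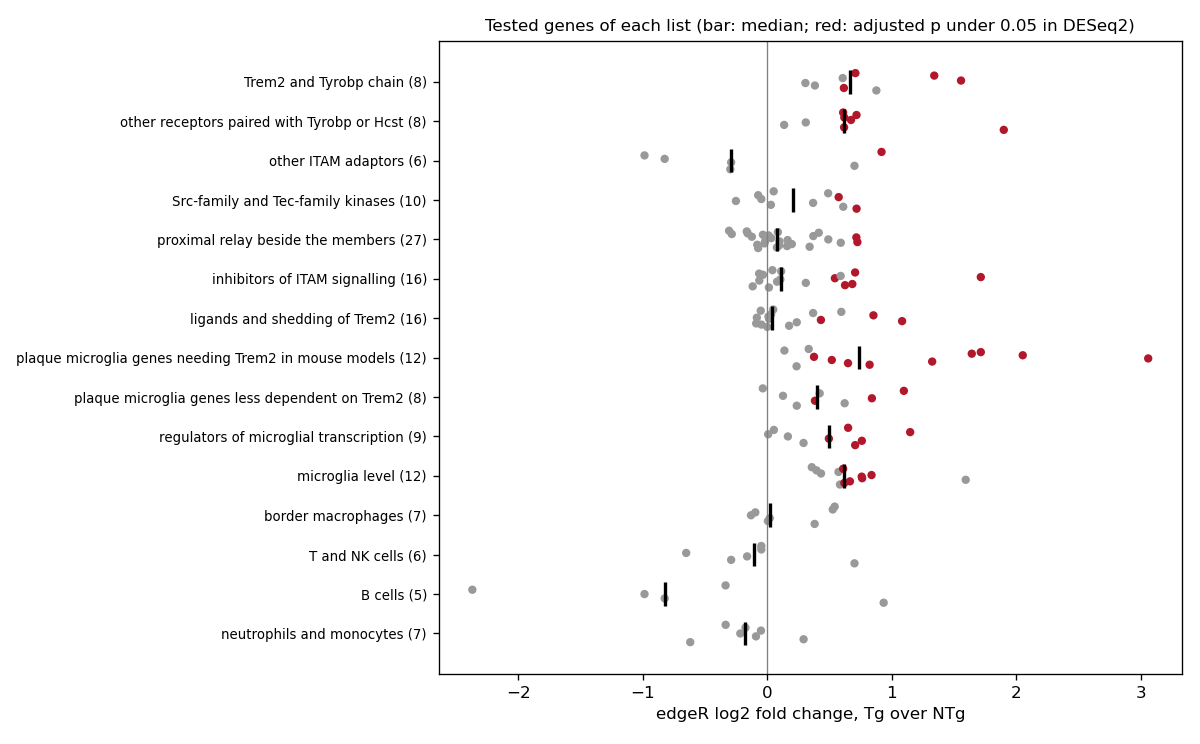
EdgeR log2 fold change, Tg over NTg (horizontal axis), of every tested gene in each list (rows, number of tested genes in brackets). Bars are list medians, and red points have an adjusted p under 0.05 in DESeq2. The Trem2 and Tyrobp chain, Hcst included, has a median of 0.66 and the microglia level list 0.61, and the medians of border macrophages (0.02), T and NK cells (-0.11) and neutrophils and monocytes (-0.18) lie nearer to 0. The B cell median of -0.82 is the value of Cd79a, which passed the filter on low counts only through Tg. Without Cd79a the B cell median is -0.66. With Cd79a kept and NTg replicate 1 left out, it turns to 0.52.

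Summed markers of other leukocytes overlapped between the genotypes. The 12 T and NK cell markers summed to 6.84 to 11.3 CPM in Tg and 8.67 to 14.0 CPM in NTg, and the 8 neutrophil and monocyte markers to 13.2 to 21.7 CPM in Tg and 10.8 to 22.2 CPM in NTg. The 7 border macrophage markers summed to 8.59 to 16.3 CPM in Tg and 9.41 to 14.9 CPM in NTg. DESeq2 and edgeR called 0 members of these lists or of the B cell list, and at an unadjusted p under 0.05 edgeR gave 1, Cd22, as higher in Tg. DESeq2 without Tg replicate 1 called Cd22 as higher. The median of the B cell list was -0.82, or -0.66 without Cd79a, which passed the filter on low counts only through Tg. With Cd79a kept, it was 0.52 without NTg replicate 1. No marker of the 4 lists was at 0 counts over all libraries.

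Of the non-immune cells, choroid plexus markers differed between the genotypes as a list, and other lists did so in part or not at all. The 8 choroid plexus markers summed to 720 to 1115 CPM in Tg and 1180 to 1593 CPM in NTg, without overlap, and all 8 were lower in Tg (median log2 fold change -0.84). DESeq2 called 6 of the 8, against 0.334% of all genes as lower, and edgeR called 0, with 8 lower at an unadjusted p under 0.05. Ttr, which carries thyroid hormone in cerebrospinal fluid, stood at 384 ± 121 CPM in Tg and 748 ± 135 CPM in NTg (SD, n = 4). The 7 astrocyte markers summed to 3421 to 5279 CPM in Tg and 3217 to 3883 CPM in NTg, with overlap (median 0.17). DESeq2 called 2 as higher, against 1.47% of all genes. Gfap, a filament protein of reactive astrocytes, was at 1534 ± 658 CPM in Tg and 431 ± 31.6 CPM in NTg. Slc1a2, the highest of the list by CPM, was at 1772 ± 155 CPM in Tg and 1961 ± 175 CPM in NTg. The genotypes overlapped in Slc1a2, and its edgeR adjusted p was 0.793. DESeq2 called 0 of the neuron markers (median -0.07) and 0 of the oligodendrocyte markers (median -0.12). The part of these cell types in the differences of the 8 genes was not tested.

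The genes whose library profile was most like that of Trem2, among 16320 genes with a mean of at least 1 CPM, were Cd68 (root mean square difference 0.16), Ggta1 (0.17), Lag3 (0.23), Hcar2 (0.26) and Osmr (0.26). For Tyrobp they were Cd68 (0.09), Ggta1 (0.12), Mpeg1 (0.15), Slc15a3 (0.17) and Clec7a (0.18). Cd68, a lysosomal protein of phagocytes, was closest to both, at 27.2 CPM in Tg and 10.7 CPM in NTg, and was closer to Tyrobp than Trem2 was, at 0.21. The measure covers 8 libraries of 2 genotypes and describes these libraries only.

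**Figure D5:**
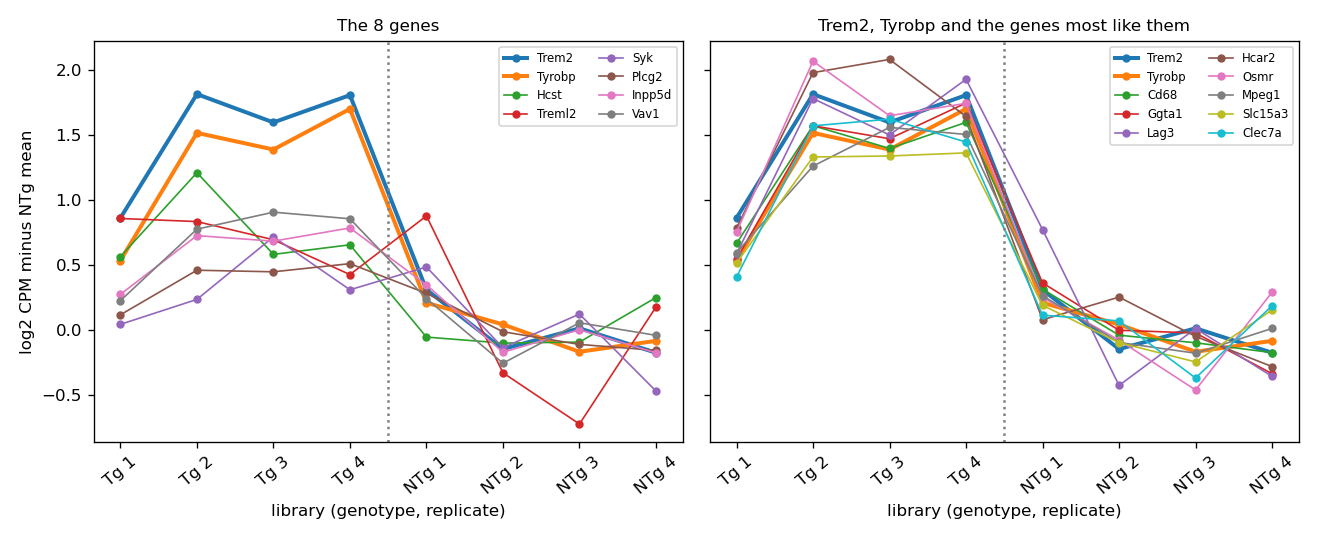
Log2 CPM minus the NTg mean (vertical axis) in each library (horizontal axis, 4 Tg libraries left of the dotted line, 4 NTg libraries right of it) for the 8 genes (left) and for Trem2, Tyrobp and the genes most like them (right). Lines only join the points of a gene, and replicates have no order. Trem2 and Tyrobp lie above the other 6 genes in Tg replicates 2 to 4. The genes most like them share the lower position of Tg replicate 1, which follows from choosing them by these same profiles.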

How the data were processed

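Polyadenylated RNA from frozen, pulverised forebrain was sequenced for 4 Tg and 4 NTg libraries, per the labels' protocols with a TruSeq kit that does not mark strand. The authors deposited raw read counts per Ensembl gene. STAR, DESeq2 and GRCm39 are named in the submitters' processing notes, while for the counting tool, the annotation and all versions the sources used here give nothing. All libraries carry the same batch label (F), and whether F names a batch or the sex is not stated. No batch split could be made. Xist stood at 527 to 753 CPM in all 8 libraries, and the Y chromosome genes Ddx3y and Eif2s3y had 0 counts, the pattern of female tissue. Symbols matched 52073 of 56748 identifiers (99.58% of counts), and 0 columns belonged to other samples.

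Low counts were removed with filterByExpr in edgeR (at least 10 counts, total of at least 15), leaving 21588 genes. After TMM scaling, edgeR's quasi-likelihood test was run on all of them, and its p-values were adjusted by Benjamini-Hochberg (called under 0.05). CPM uses TMM-scaled totals, and log2 CPM a prior count of 2. Each SE was taken from the fold change and its F statistic. The versions were edgeR 4.0.16, DESeq2 1.42.0 and limma 3.58.1 under R 4.3.3. The edgeR fit was also run on simulated counts with set fold changes, which checks the code and adds no support to the results here. For within-library differences, all regroupings of the libraries were enumerated (exact permutation test, two-sided). Transcript lengths came from GENCODE M21 (GRCm38), promoters from RefSeq.

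The 8 genes and all lists were chosen with earlier results of these data known. Named from each list are up to 3 tested genes with the smallest p and the most abundant one, with exceptions stated. Treml6 had no row. Some list members are in more than 1 list, and Csf1r and Siglech are both in the list of receptors paired with Tyrobp or Hcst and among the microglial markers. Replicate pairs differed beyond sampling noise (chi-square per degree of freedom 10.9 or more). Alternatives were DESeq2, limma-voom with and without quality weights, other scaling, filters and dispersion, covariates, the replicate number as a block, and each library left out in turn.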

Additional observations from a re-analysis of the deposited data

Results flagged for a closer look

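Hcst was marked in both genotypes because 1 library stood apart from the other 3. In Tg, replicate 2 was at 0.444 CPM, with the nearest Tg library at 0.291 CPM. In NTg, replicate 4 was at 0.212 CPM, with the nearest NTg library at 0.165 CPM. These rest on 27 and 12 counts. In all, 46 groups of 4 values were looked at in this way and 2 were marked, where chance marks about 1 in 20.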

How the results depend on the processing

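The fold changes of Trem2, Tyrobp, Hcst, Treml2, Inpp5d and Vav1 stayed above 0 in the fits run (Hcst could not be fitted under a minimum of 1 CPM), from 0.67 to 1.73 for Trem2 and 0.45 to 1.54 for Tyrobp. With the microglia level as a covariate these were lowest, Inpp5d was 0.04 and Vav1 0.10, Syk turned to -0.47 and Plcg2 to -0.074, neither called; the covariate is itself higher in Tg. Trem2 was called by DESeq2 (1.55), with no filter on low counts (1.56), by limma-voom with quality weights (1.59) and without Tg replicate 1 or NTg replicate 1 (range over left-out libraries 1.46 to 1.73, adjusted p 0.000356 to 0.337). Tyrobp was called by DESeq2 (1.34), with no filter (1.34) and without Tg replicate 1 (range 1.20 to 1.54, adjusted p 0.000356 to 0.351). DESeq2 without Tg replicate 1, added after seeing the data, gave 1.73 for Trem2 and 1.53 for Tyrobp.

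Counted without Hcst, which was not called in any fit, the number of the other 7 genes called was 0 with edgeR and 4 with DESeq2. It was 2 with no filter, 1 with quality weights and 5 with DESeq2 without Tg replicate 1. With edgeR over left-out libraries it was 0 to 4 (4 without Tg replicate 1, 1 without NTg replicate 1). Of the pathway genes, edgeR called 0, DESeq2 35, DESeq2 without Tg replicate 1 42, and edgeR 0 to 36 over left-out libraries (36 without Tg replicate 1, 1 without NTg replicate 1). Over all genes edgeR called 3, DESeq2 352, and edgeR without Tg replicate 1 314.

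The replicate numbers did not pair the libraries, since the correlation of deviations between same-numbered libraries ran from -0.03 to 0.16. With the replicate block the log2 fold change was 1.53 for Trem2 and 1.29 for Tyrobp. Of the 7 genes without Hcst 0 were called, and 1 gene in all.

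Relative to the microglia level, Tyrobp ranged from 0.51 to 0.72 over left-out libraries and Trem2 from 0.77 to 0.92. The exact permutation p rose to 0.0571 in 5 of these runs for Tyrobp and stayed at 0.0286 for Trem2. Differences near 0 changed sign: Hcst ranged from -0.057 to 0.26, Treml2 from -0.24 to 0.24 and Vav1 from -0.081 to 0.10 over left-out libraries, and Inpp5d was 0.035 with a level made from 5 markers. Hcst against Tyrobp ranged from -0.72 to -0.36, with an exact permutation p of 0.0286 without Tg replicate 1. Counts of 9 to 27 limit Hcst and of 22 to 82 limit Treml2.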
